A study of Mus musculus with 100 samples.

Results

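The cortex of Myt1l homozygous (HOM) mouse embryos was compared with that of heterozygous (HET) embryos at E18.5, late in gestation, to ask what losing the second copy of the gene adds to losing the first. The comparison holds 22 of the 100 RNA sequencing libraries of the series, chosen by their age and genotype labels. They came from 5 HOM animals (10 libraries) and 6 HET animals (12 libraries), and the libraries of an animal were summed, so that the animal is the replicate. HET animals carried 1 copy and HOM animals 2 copies of a Myt1l allele with a 7-base deletion. Per the study's methods it was made in zygotes and passed on by breeding, so these embryos inherited it and held it from the start of development. The labels give whole cortex as the tissue and C57BL/6J as the strain, whereas the study's methods name C57BL/6N zygotes. Littermate relations were not given. Wild-type (WT) embryos of the same age, 5 animals, are used below for their levels, and HOM and HET animals of the day of birth (P0), 6 of each, for 1 comparison of ages.

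MYT1L is a zinc finger transcription factor that neurons switch on as they leave the cell cycle and keep for life. It is known mainly as a repressor of genes that neurons do not use, and Myt1 and St18 are its relatives with the same type of zinc fingers. In the late embryonic cortex, radial glia and intermediate progenitors still divide, excitatory neurons settle in layers, inhibitory neurons arrive from the ventral forebrain, and Cajal-Retzius cells lie under the pia.

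The mutation is shown first, because it decides what a read on Myt1l can tell. The guide RNA spacer, 20 bases long, matches Myt1l at chr12:29783637-29783656 on the plus strand (mm10). That is exon 6 and coding sequence in 3 of the 4 transcripts that hold it, and CGG follows it there in the GENCODE M21 transcripts. The genotyping primers of the study read across the deletion. In the wildtype primer the capitals are the 7 bases that the mutant allele lacks, at chr12:29783649-29783655, and in the mutant primer the capitals are the bases that follow them.
guide RNA spacer: aggagaagcgccaucgcaca
wildtype forward primer: ctctgaggagaagcgccATCGCAC
mutant forward primer: ctgaggagaagcgccACGGT
Per the labels the deletion shifts the reading frame near the start of the protein and the mutant transcript escapes nonsense-mediated decay. Counts summed over the whole gene therefore include reads of the mutant transcript, and a level of Myt1l RNA does not measure MYT1L protein.

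Myt1l RNA was higher, not lower, in HOM. Levels are given as CPM, read counts scaled to a common library total, with TMM as the normalisation between animals. The 5 HOM animals had 788, 890, 894, 839 and 1026 CPM of Myt1l (chr12:29528384-29923213), and the 6 HET animals ran from 475 over a median of 618 to 815 CPM. The groups overlapped by a single pair, since the lowest HOM animal lay below the highest HET animal. Mean log2 CPM was 0.48 higher in HOM (exact permutation test over animals, 2-sided p = 0.0087), and 0.50 higher when labels were permuted within sequencing batches (exact p = 0.01). In the edgeR quasi-likelihood fit across all genes, with sequencing batch and sex as covariates, the difference was 0.52 ± 0.10 on the log2 scale (± SE) with an adjusted p of 0.148. It stayed between 0.44 and 0.58 when any 1 animal was left out. The WT embryos lay lower still, at 381 to 532 CPM. Myt1 had 25.0 to 48.9 CPM in HET and 47.3 to 59.8 CPM in HOM, a log2 difference of 0.43 ± 0.13 (adjusted p = 0.349). St18 was low in both groups, at 1.98 to 7.54 CPM in HET and 2.53 to 6.42 CPM in HOM.

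The HOM and HET animals were sequenced to similar depths, 37.5 to 50.8 and 36.8 to 51.0 Mreads (counted reads) per animal. Sequencing batch, an identifier in the labels, separated the animals more than genotype did. Of the spread of the 11 animals on their first principal component, 92.0% lay between batches and 0.795% between genotypes. Both batches held both genotypes, with 3 HOM and 3 HET animals in batch 1 and 2 HOM and 3 HET animals in batch 3, but both HOM animals of batch 3 were male and 1 of its 3 HET animals was. One library pair stood apart, HET animal 459. Ttr, the transthyretin gene that marks choroid plexus, was at 2390 CPM in that animal and at 0.0521 to 3.02 CPM in the other HET animals, with 0.0525 to 1.60 CPM in HOM. Summed over 18 choroid plexus genes the levels were 11.9 to 2627 CPM in HET and 11.4 to 27.8 CPM in HOM, and animal 459 held the top value. All 14 genes of the cortex identity list were present in every animal, for example Neurod6, a factor of excitatory cortical neurons, at 575 to 1005 CPM. Values without animal 459 are given for the main count, for some of the genes whose call it changes and for several list medians. The median difference of the ependymal and cilia list, for example, went from -0.42 to 0.037 without it.

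Of 17773 genes tested, 1 passed an adjusted p of 0.05, higher in HOM, which is 0.00563% of the genes, and none was lower (0%). At an unadjusted p of 0.05, 878 genes (4.94%) were higher and 880 (4.95%) lower. The single call was Dlx1as, an RNA read antisense to the homeobox gene Dlx1, which directs inhibitory neuron development. It had 40.6, 39.2, 38.0, 32.4 and 32.2 CPM in the HOM animals and 20.02, 24.7 and 28.8 CPM as the lowest, median and highest HET level. Every HOM animal was above every HET animal. The log2 difference was 0.55 ± 0.06 (adjusted p = 0.0172, edgeR), and WT embryos, at 18.97 to 30.7 CPM, spanned the HET range. It was 0.48 in batch 1 and 0.56 in batch 3 with a sex term, and 0.49 and 0.64 without one. With any 1 animal left out the difference stayed at 0.53 to 0.57. The call held in 4 of these 11 fits, those without HET 459, HET 733, HOM 461 or HOM 728, and was lost without HET 457, HET 460, HET 710, HET 729, HOM 454, HOM 455 or HOM 730, with adjusted p up to 0.187.

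Dlx1as lies at chr2:71516454-71537891 on the minus strand and covers the whole of Dlx1 (chr2:71528113-71533981, plus strand). The strand setting of the counting was not given in the sources used here, so reads of both genes cannot be told apart. Dlx1 itself had 131, 124, 92.6, 62.3 and 64.2 CPM in HOM and 56.7, 68.2 and 98.3 CPM as the lowest, median and highest HET level, with overlap between the groups (log2 difference 0.31 ± 0.07, adjusted p = 0.200). Dlx2, the neighbouring homeobox gene at chr2:71543408-71546754, had 47.8, 52.0, 38.3, 29.9 and 25.9 CPM in HOM against 18.4, 28.3 and 37.1 CPM, a difference of 0.45 ± 0.08 that just missed an adjusted p of 0.1 (0.101). For these 2 genes the batch 1 animals of either genotype were the high ones.

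**Figure D1:**
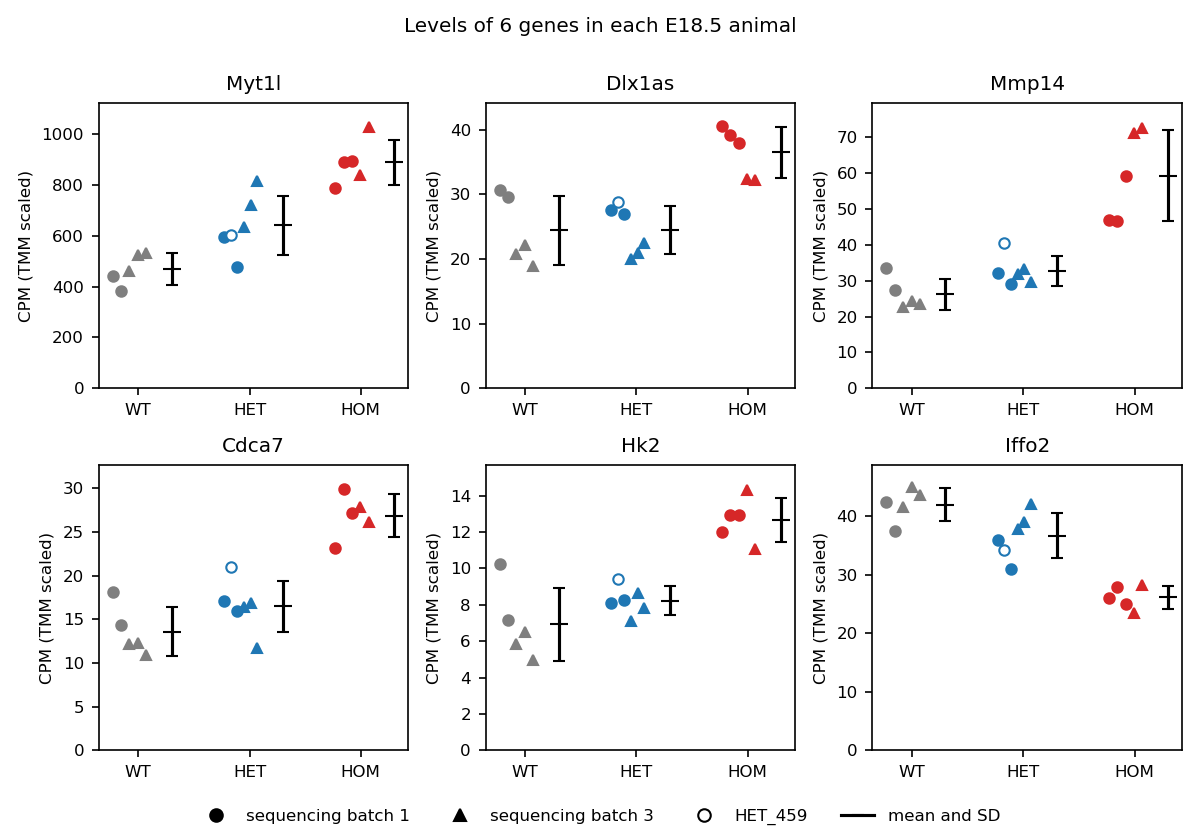
CPM (TMM scaled) of Myt1l, Dlx1as, Mmp14, Cdca7, Hk2 and Iffo2 in each E18.5 animal, by genotype on the x axis, with circles for sequencing batch 1, triangles for batch 3, an open circle for HET animal 459, and mean with SD beside each group. HOM animals lie above all HET animals for Dlx1as, Mmp14, Cdca7 and Hk2 and below them for Iffo2, while Myt1l overlaps between 788 and 815 CPM.

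At the adjusted p of 0.1 that the study used for its own calls, 14 genes passed (0.0788%), 10 higher (0.0563%) and 4 lower (0.0225%). This looser threshold was taken up after the values were seen. Beside Dlx1as, the higher genes were Mmp14, Rftn2, Golm1, Hk2, Phf21a, Fkbp14, Txnip, Hbp1 and Xlr3a, and the lower ones Acsl1, Cldn1, Iffo2 and Fzd9. HOM and HET animals did not overlap for 7 of the 14. Among all genes tested, HOM lay above HET without overlap for 69 (0.388%) and below it for 35 (0.197%). The DESeq2 Wald test on the same animals and covariates called 205 genes (1.37%) at an adjusted p of 0.05, 97 higher (0.646%) and 108 lower (0.72%), and all 14 genes were among them. The 14 were picked by their p in these same animals. Their separation and their DESeq2 calls follow in part from that choice and are no added evidence.

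**Figure D2:**
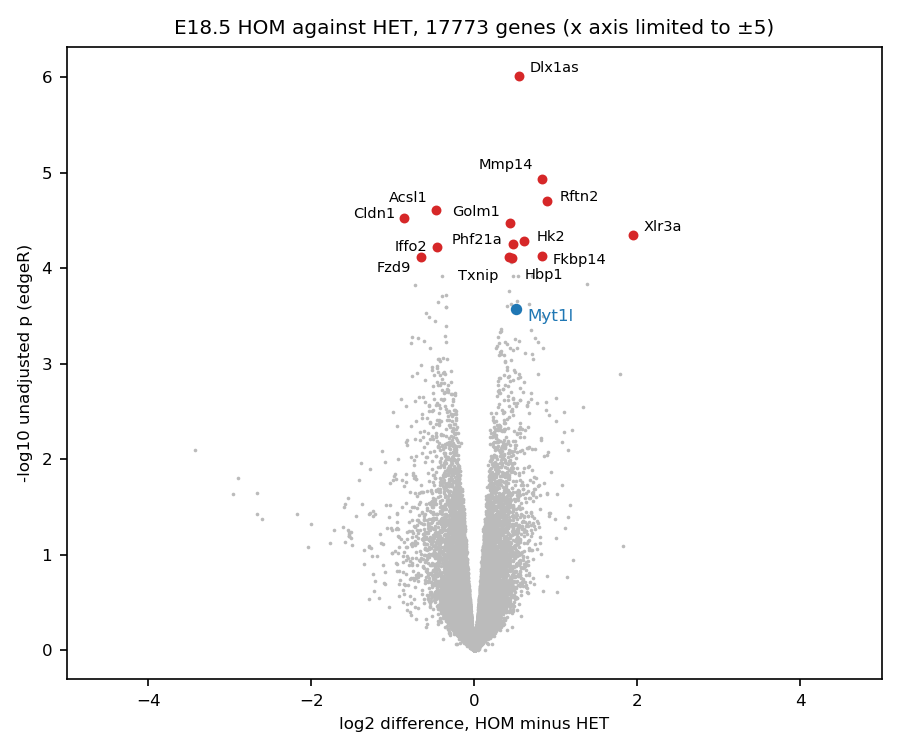
Log2 difference between HOM and HET (x axis) against -log10 of the unadjusted edgeR p (y axis) for 17773 genes, with the 14 genes under an adjusted p of 0.1 in red and Myt1l in blue. Dlx1as is the top point at a difference of 0.55, and 1 gene, Ttr at -6.08, lies outside the plotted range.

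Mmp14, a membrane-bound protease that cleaves collagen and activates other matrix proteases, had 46.8, 46.5, 59.1, 71.2 and 72.5 CPM in HOM. Its HET levels were 29.0, 32.0 and 40.5 CPM (lowest, median, highest), so all HOM animals lay above, and those of batch 3 furthest. The difference was 0.83 ± 0.11 (adjusted p = 0.0991, edgeR), with 0.65 in batch 1 and 1.31 in batch 3 (0.58 and 1.21 without a sex term). It had an adjusted p of 0.0191 without HET animal 459, which was the highest HET animal for this gene. Rftn2, a lipid raft protein, had 16.2, 16.7, 14.8, 13.3 and 13.3 CPM in HOM and 4.56, 8.78 and 9.29 CPM in HET. That was a clean separation and a difference of 0.89 ± 0.13 (adjusted p = 0.0991).

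Of 28 tested genes of the hypoxia and glycolysis list, 14 were above 0 with a median of 0.0026, and 1 had an unadjusted p under 0.05 in the higher and 2 in the lower direction (background shares 4.94% and 4.95%). The higher one was Hk2. Hk2, the hexokinase that starts glycolysis in growing tissue, had 12.02, 12.9, 12.9, 14.3 and 11.1 CPM in HOM and 7.10, 8.19 and 9.42 CPM in HET, without overlap (0.62 ± 0.10, adjusted p = 0.0996). Txnip, which restrains glucose uptake and thioredoxin, was at 71.4 to 81.7 CPM in HOM and 45.9 to 64.4 CPM in HET, again without overlap. Acsl1, an enzyme that activates long fatty acids, was lower, with 18.8, 20.8, 16.1, 12.4 and 13.5 CPM in HOM and 20.4, 22.9 and 25.7 CPM in HET. Only the HOM animal at 20.8 CPM reached into the HET range (-0.48 ± 0.07, adjusted p = 0.0991). Hk1, the main hexokinase of brain, had 235 ± 15.1 CPM in HOM (SD, n = 5) and 284 ± 34.1 CPM in HET (SD, n = 6) and passed neither threshold (-0.23 ± 0.06, edgeR adjusted p = 0.300).

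Phf21a, a reader of unmethylated histone H3 in a repressor complex, had 91.8, 96.9, 106, 119 and 138 CPM in HOM and 64.6, 80.9 and 93.7 CPM in HET, so a single HOM animal fell inside the HET range (0.47 ± 0.08, adjusted p = 0.0996). Hbp1, a transcriptional repressor that slows the cell cycle, was at 36.4 to 51.8 CPM in HOM and 28.5 to 38.9 CPM in HET (0.46 ± 0.08, adjusted p = 0.0996). The highest HET animal for Hbp1 was again animal 459. Golm1, a Golgi membrane protein, had 44.6 to 58.6 CPM in HOM and 32.8 to 42.7 CPM in HET, without overlap, and Fkbp14, a folding enzyme of the endoplasmic reticulum that acts on collagen, 4.09 to 9.39 and 2.13 to 4.40 CPM. Xlr3a, an X-linked gene with near-identical copies between which reads may be split, was very low, at 0.769 to 2.45 CPM in HOM and 0.110 to 0.859 CPM in HET.

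Iffo2, an intermediate filament family member, had 26.1, 27.9, 25.0, 23.5 and 28.3 CPM in HOM and 31.0, 37.0 and 42.1 CPM in HET, and was the gene of the 4 whose groups did not overlap (-0.45 ± 0.07, adjusted p = 0.0996). Fzd9, a receptor for WNT ligands, was at 4.81 to 8.11 CPM in HOM and 7.91 to 13.8 CPM in HET (-0.65 ± 0.11). Cldn1, a tight junction protein, was at 4.54 to 7.11 CPM in HOM and 5.94 to 14.6 CPM in HET (-0.86 ± 0.13). The next genes in the lower direction passed neither threshold with all 11 animals, namely Plk3, a stress-responsive kinase (-0.73 ± 0.13, adjusted p = 0.127), and B4galt5, a galactosyltransferase of glycolipid synthesis (-0.35 ± 0.07, adjusted p = 0.145). Without HET animal 459, Plk3 was called lower (edgeR adjusted p = 0.0342).

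Leaving out HET animal 459 raised the number of calls at an adjusted p of 0.05 from 1 to 49 (0.279%), with 27 higher (0.154%) and 22 lower (0.125%). Of the 14 genes above, 9 were called in that fit. Beside Dlx1as (0.57, edgeR adjusted p = 0.0191) and Mmp14, given above, these were Rftn2 (0.93), Golm1 (0.47), Phf21a (0.52), Hbp1 (0.52) and Acsl1 (-0.51), each with an edgeR adjusted p of 0.0342, and Hk2 (0.66, adjusted p = 0.0409) and Cldn1 (-0.80, adjusted p = 0.0479). Among the further calls were the dividing-cell gene Cdca7 and the synaptotagmin Syt2, higher in HOM, and Doc2a, a calcium sensor of neurotransmitter release, and Lrrtm1, an organiser of excitatory synapses, lower in HOM. The part of choroid plexus tissue in the difference between both counts was not tested.

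Of the lists described, that of the cell cycle had the most members with an unadjusted p under 0.05 in the higher direction. All 50 members of the list passed the filter on low counts, 48 had a difference above 0 and 33 had an unadjusted p under 0.05 in the higher direction (4.94% of all genes did), with none in the lower direction. The median difference was 0.35, beside 0.0069 over all genes tested. No member passed an adjusted p of 0.05 in edgeR, and 1, Cdca7, was called by DESeq2. Cdca7, a chromatin factor of S phase, was the clearest: 23.1, 29.8, 27.2, 27.8 and 26.2 CPM in HOM against 11.7, 16.6 and 20.9 CPM in HET. All HOM animals were above all HET animals (0.70 ± 0.12, adjusted p = 0.114), and the top HET animal was 459. Rrm1, a subunit of the enzyme that makes deoxynucleotides, was at 62.6 to 73.4 CPM in HOM and 50.4 to 65.3 CPM in HET. Ccnd2, a cyclin of cell cycle entry, was at 195 to 275 CPM and 109 to 248 CPM, Kif23, a kinesin of cell division, at 8.78 to 12.4 CPM and 5.96 to 10.4 CPM, and Mki67, the proliferation marker Ki67, at 44.2 to 88.2 CPM and 29.3 to 60.6 CPM.

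The mean log2 CPM over the cell cycle list was 3.86, 3.94, 4.16, 4.22 and 4.17 in the HOM animals and 3.33, 3.71 and 4.13 (lowest, median, highest) in HET. HET animal 459 held the highest HET value and reached into the HOM range, and without it the median difference was 0.46. In batch 3 both HOM animals (4.17 and 4.22) lay above the 3 HET animals (3.33 to 3.70). In batch 1 the HOM animals (3.86 to 4.16) and HET animals (3.72 to 4.13) overlapped. The medians of the list were 0.19 in batch 1 and 0.98 in batch 3, or 0.11 and 0.71 without a sex term. WT embryos ranged from 3.26 to 3.98.

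Of 29 radial glia genes, 27 were above 0 with a median of 0.24 (0.37 without animal 459), and 6 had an unadjusted p under 0.05, all higher. Their medians were 0.085 in batch 1 and 0.83 in batch 3, or 0.13 and 0.45 without a sex term. Pax6, a transcription factor of cortical radial glia, had 23.7, 19.6, 29.6, 23.9 and 24.9 CPM in HOM and 6.74, 11.995 and 26.2 CPM in HET, with overlap (0.74 ± 0.23, adjusted p = 0.340). Sox2, a stem cell factor, was at 22.8 to 47.6 CPM in HOM and 12.8 to 44.6 CPM in HET (0.31 ± 0.12, adjusted p = 0.454). The list of intermediate progenitors and new neurons had a median of 0.19, with 18 of 24 tested members above 0, 4 with an unadjusted p under 0.05 in the higher and 1 in the lower direction. Its median was 0.28 without animal 459. It was 0.049 in batch 1 and 0.82 in batch 3, or -0.019 and 0.57 without a sex term.

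Inhibitory neuron genes stood mostly above 0, with overlap of the list levels in both batches. Of 33 tested members of the 35-gene list, 30 were above 0 (median 0.26), 16 had an unadjusted p under 0.05 in the higher direction and none in the lower. The medians were 0.16 in batch 1 and 0.45 in batch 3, or 0.25 and 0.20 without a sex term, so which batch had the larger one depended on that term. The median was 0.28 without animal 459. Of the members, 4 were called by DESeq2 and none by edgeR. Dlx6os1, an antisense RNA at the Dlx5 and Dlx6 genes, was at 25.9 to 77.3 CPM in HOM and 16.8 to 56.8 CPM in HET (0.56 ± 0.15). The enzymes that make GABA, Gad1 and Gad2, and its vesicular transporter Slc32a1 differed by 0.30, 0.28 and 0.29 on the log2 scale, with adjusted p of 0.419, 0.461 and 0.335.

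These genes differed more between batches than between genotypes. Mean log2 CPM over the inhibitory neuron list was 5.003 to 5.46 in HOM and 4.81 to 5.22 in HET of batch 1, and 4.14 to 4.24 in HOM and 3.75 to 4.15 in HET of batch 3. Genes of the striatum, which lies under the cortex and holds many inhibitory neurons, moved the same way between batches, with list levels of 4.40 to 5.04 (HOM) and 4.03 to 4.67 (HET) in batch 1 and 1.87 to 2.36 (HOM) and 1.51 to 2.84 (HET) in batch 3. Between genotypes, 11 of 22 striatum genes were above 0 with a median of 0.0033, or 0.11 without animal 459. The part of tissue from below the cortex in the inhibitory neuron values was not tested. In whole tissue, more cells of a type and more RNA per cell cannot be told apart, here and in the lists that follow.

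**Figure D3:**
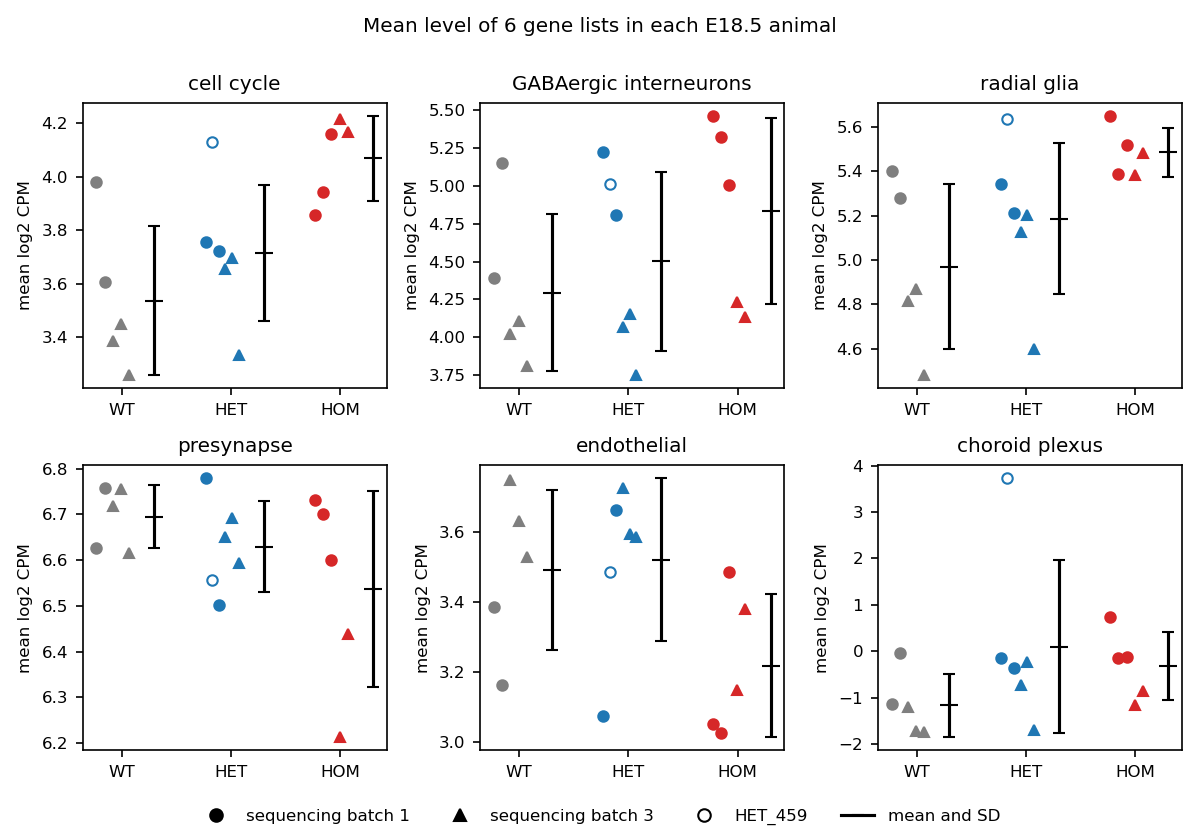
Mean log2 CPM over the tested members of 6 gene lists in each E18.5 animal, by genotype, with circles for sequencing batch 1, triangles for batch 3, an open circle for HET animal 459, and mean with SD beside each group. In batch 3 the cell cycle level of both HOM animals (4.17 and 4.22) is above all HET animals, the inhibitory neuron level splits by batch, and animal 459 alone reaches 3.74 for choroid plexus.

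Cajal-Retzius genes were above 0 in 9 of 10, with a median of 0.36 and 4 members under an unadjusted p of 0.05. The medians were 0.15 in batch 1 and 0.83 in batch 3, or 0.30 and 0.46 without a sex term. Reln, the secreted protein that guides layering, had 622, 596, 469, 506 and 415 CPM in HOM and 328, 419 and 511 CPM in HET, with overlap (0.34 ± 0.12, adjusted p = 0.394). Trp73 was at 13.3 to 25.1 CPM in HOM and 9.68 to 20.2 CPM in HET (0.51 ± 0.17), and Calb2, which inhibitory neurons also express, at 16.5 to 42.3 and 10.5 to 26.0 CPM (0.52 ± 0.18). Of the 22 microglia genes, 19 were above 0 (median 0.30), and 3 had an unadjusted p under 0.05. Their medians were 0.012 in batch 1 and 0.96 in batch 3, or 0.11 and 0.49 without a sex term.

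No synaptic gene was called in edgeR. Of 49 presynaptic genes, 35 were below 0 (median -0.12), and 15 had an unadjusted p under 0.05 in the lower direction (4.95% of all genes did) and 2 in the higher. DESeq2 called 3 of the presynaptic genes lower and 1 higher. The medians were -0.030 in batch 1 and -0.24 in batch 3, or 0.012 and -0.33 without a sex term, and the difference between batches was not tested for the list. Doc2a had 20.9, 18.8, 14.3, 16.02 and 16.2 CPM in HOM and 15.8, 33.1 and 38.4 CPM in HET. All HET animals but one were above the HOM range (-0.76 ± 0.16, adjusted p = 0.200), and the lowest, at 15.8 CPM, was animal 459. Without it the adjusted p was 0.0191. Rims3, which organises the release site, was at 64.0 to 156 CPM in HOM and 115 to 181 CPM in HET (-0.38 ± 0.09), and Syn1, a synaptic vesicle protein, at 123 to 144 and 140 to 174 CPM (-0.21 ± 0.06). Syt2, a calcium sensor of fast release, went the other way, at 3.43 to 6.02 CPM in HOM and 2.03 to 4.55 CPM in HET (0.70 ± 0.18, adjusted p = 0.263).

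Of 47 genes of the glutamatergic postsynapse, 32 were below 0 (median -0.10), with 6 lower and 4 higher under an unadjusted p of 0.05. Of these 47 genes, 3 were called lower by DESeq2 and none higher. The medians were 0.042 in batch 1 and -0.35 in batch 3, or 0.073 and -0.32 without a sex term. Nptxr, a receptor that gathers glutamate receptors at synapses, had 129, 110, 96.3, 64.1 and 84.0 CPM in HOM and 114, 146 and 179 CPM in HET (-0.55 ± 0.11, adjusted p = 0.163). Its difference was -0.30 in batch 1 and -0.94 in batch 3, or -0.20 and -1.12 without a sex term. Lrrtm1 was at 58.4 to 68.8 CPM in HOM and 64.8 to 96.3 CPM in HET, and Dlgap3, a scaffold protein, at 39.2 to 66.0 and 54.1 to 77.5 CPM.

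Endothelial genes were below 0 in 20 of 20 tested members of a 22-gene list, with a median of -0.31, and 10 had an unadjusted p under 0.05. The medians were -0.070 in batch 1 and -0.21 in batch 3, or -0.23 and -0.31 without a sex term. Kdr, a receptor for the vascular growth factor VEGF, had 27.1, 25.2, 34.0, 27.1 and 35.9 CPM in HOM and 26.5, 40.2 and 47.0 CPM in HET, with overlap (-0.35 ± 0.12, adjusted p = 0.370). Flt1, a second VEGF receptor, was at 14.5 to 20.9 CPM in HOM and 18.3 to 28.1 CPM in HET, and the vessel markers Pecam1 and Emcn differed by -0.30 ± 0.11 and -0.37 ± 0.13. The list level was 3.02 to 3.487 in HOM. HET animal 457, at 3.07, and HET animal 459, at 3.486, lay inside that range, while the other HET animals were at 3.59 to 3.73.

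WNT pathway genes, 55 tested of 62, had no common direction (24 above 0, median -0.0100, or 0.035 without animal 459), with 11 lower and 5 higher under an unadjusted p of 0.05. Receptors stood at both ends. Fzd9 is given above, and Fzd2 was at 14.9 to 20.1 CPM in HOM and 5.99 to 16.7 CPM in HET (0.65 ± 0.17, adjusted p = 0.271). Rspo2, a secreted amplifier of WNT signals, was at 7.41 to 10.6 CPM in HOM and 10.4 to 16.2 CPM in HET (-0.60 ± 0.15, adjusted p = 0.243). Genes of the NOTCH pathway, 37 tested, had a median of -0.03, with 3 lower and 1 higher under an unadjusted p of 0.05. Of 22 immediate early genes, 15 were below 0 (median -0.082). An unadjusted p under 0.05 was found for 1 in the higher and 2 in the lower direction, 1 of these being Plk3, given above. The higher one was Jun, at 35.1 to 41.9 CPM in HOM and 25.3 to 37.1 CPM in HET (edgeR adjusted p = 0.314). Cytosolic ribosomal protein genes were above 0 in 78 of 79 with a median of 0.13, but none had an unadjusted p under 0.05, and their median was -0.10 in batch 1 and 0.42 in batch 3, or -0.12 and 0.46 without a sex term.

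**Figure D4:**
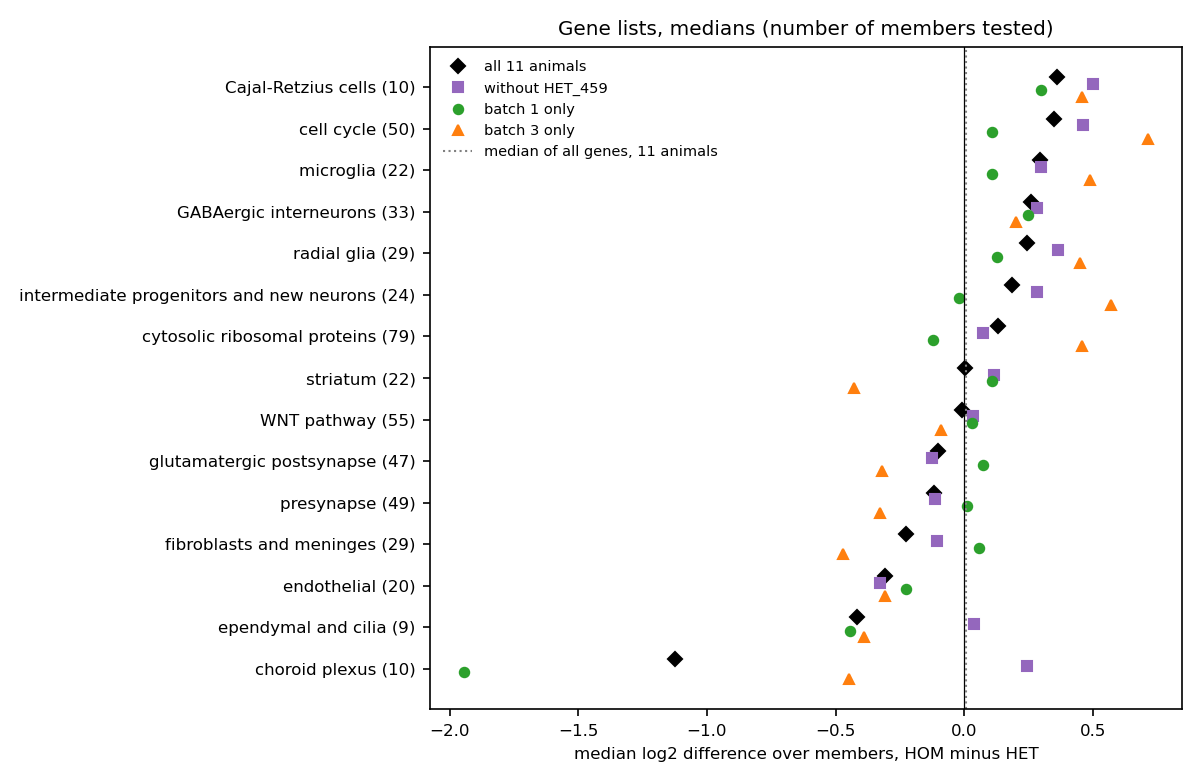
Median log2 difference between HOM and HET over the tested members of 15 gene lists (number of members in brackets), for all 11 animals, without HET animal 459, and within each sequencing batch without a sex term. Cell cycle, Cajal-Retzius, radial glia, microglia and inhibitory neuron medians are above 0 and endothelial medians below 0 in all 4 versions, while the choroid plexus median goes from -1.12 to 0.25 without animal 459.

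Of the 16 genes that the study names for MYT1L, 4 had an unadjusted p under 0.05, all higher in HOM, namely Cdca7, Reln, Sox2 and Mki67 with the values given above. The other 12 differed by -0.19 to 0.48, and their smallest adjusted p was 0.602. The study chose these genes with these animals among its data, so they are no independent evidence of a direction.

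The HOM effect itself was compared between batches. No gene passed an adjusted p of 0.05 for the difference between batch 3 and batch 1 in edgeR (0% of 17773). At an unadjusted p under 0.05 there were 1804 genes, 621 above 0 and 1183 below, and 3016 without a sex term. With so few animals per batch, the lack of calls does not show that the effect was the same in both.

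The WT embryos show where HET lies between the other genotypes. The contrast of HET with the midpoint of WT and HOM called no gene (0% of 17948, edgeR, 401 genes at an unadjusted p under 0.05). In that fit Myt1l departed from the midpoint by -0.015, and the step from WT to HET was 0.48 ± 0.09 on the log2 scale. For Dlx1as the departure was -0.29, with a mean of 24.4 CPM in WT, 24.5 CPM in HET and 36.5 CPM in HOM. Rftn2 (7.50, 8.03 and 14.9 CPM) and Phf21a (78.1, 80.8 and 110 CPM) had the same order of means, with HET near WT. Mmp14 (26.2, 32.8 and 59.2 CPM) and Cdca7 (13.6, 16.5 and 26.8 CPM) had HET a little above WT. These genes stand out for a small p of HOM against HET in these same animals. That choice favours HET levels far from HOM, so HET lying near WT is in part fixed by it. In WT, batch and sex went together, since both animals of batch 1 were female and the 3 of batch 3 male.

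At P0 the same genotypes were compared in prefrontal cortex, so age and dissection changed together. In 1 fit of both ages, 5 genes (0.0269% of 18568) were called for HOM against HET at E18.5 and 126 (0.679%) at P0. The difference of both effects was called for no gene (0%), by edgeR with 740 genes at an unadjusted p under 0.05, or by DESeq2 with 844. The 5 genes called at E18.5 in that fit were Mmp14, Phf21a, Myt1l, Xlr3a and Plk3. Of the 14 genes, 12 had the same direction at P0 and 3 were called there, Hk2, Phf21a and Dlx1as. Phf21a differed by 0.48 ± 0.07 at E18.5 and 0.49 ± 0.07 at P0, Hk2 by 0.62 ± 0.13 and 0.89 ± 0.12, and Dlx1as by 0.54 ± 0.15 and 0.64 ± 0.15. Mmp14 differed by 0.84 ± 0.10 and 0.40 ± 0.10 (adjusted p of the difference = 0.998). Myt1l differed by 0.52 ± 0.09 and 0.69 ± 0.09. The genes of the opposite sign at P0 were Cldn1 (-0.84 ± 0.23 and 0.20 ± 0.23) and Xlr3a (1.95 ± 0.35 and -0.15 ± 0.34). Lists did not all keep their sign. In the same fit the medians at E18.5 and P0 were 0.37 and 0.22 for the cell cycle, 0.22 and -0.15 for radial glia, 0.25 and -0.066 for inhibitory neurons, 0.28 and -0.059 for microglia, -0.30 and 0.053 for endothelial genes and -0.13 and -0.20 for the presynapse. These differences between ages were not tested for lists.

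**Figure D5:**
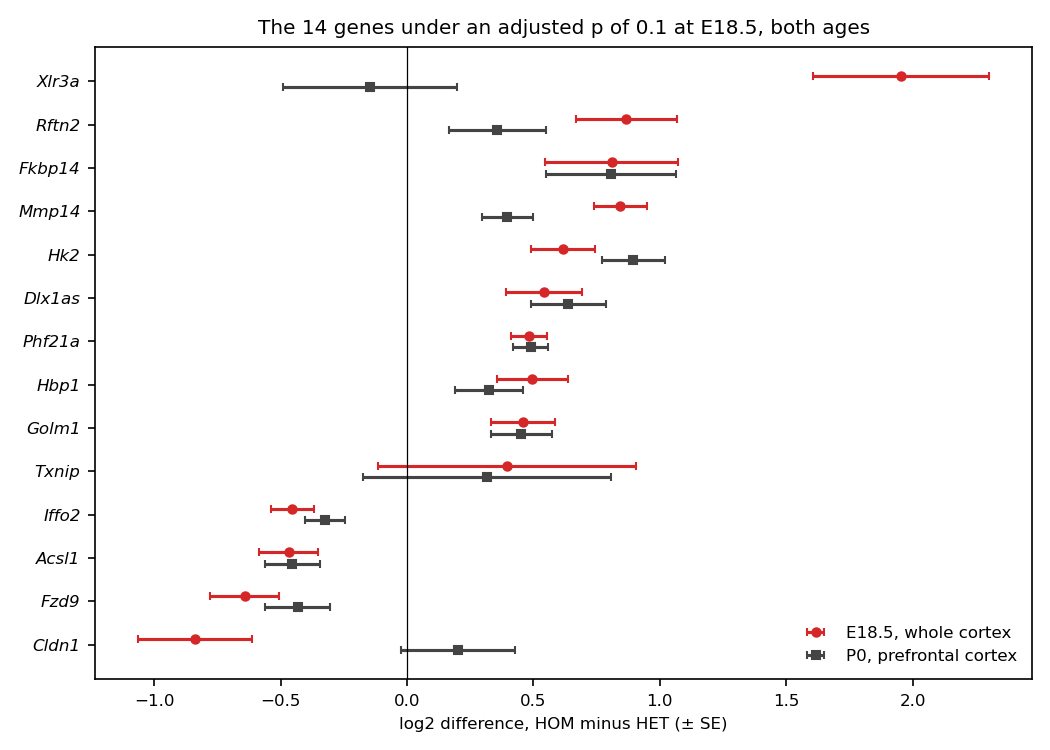
Log2 difference between HOM and HET with SE for the 14 genes under an adjusted p of 0.1 at E18.5, from 1 fit of E18.5 whole cortex (red circles) and P0 prefrontal cortex (dark squares). Phf21a has nearly the same value at both ages (0.48 and 0.49), and Cldn1 and Xlr3a change sign.

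The study names AAAGTT as the motif that MYT1L binds. It was searched on both strands, where the reverse reads AACTTT, in RefSeq promoters of 250 bases before to 50 bases after a gene's start (GRCm38.p6). It was present in 12.9% of the 12155 tested genes with a promoter in that table and in 14.1% of all 32851 promoters. Among genes at an unadjusted p under 0.05 it was present for 103 of 646 higher (15.9%) and 60 of 632 lower genes (9.49%). Of the 14 genes, 12 had a promoter in the table, and 3 of 8 higher genes and 0 of 4 lower genes held the motif. The 3 were Mmp14, Phf21a and Hbp1. The Mmp14 window and the Phf21a window with the motif are shown because those genes were called in the fit of both ages. Capitals mark the motif, and a match is a description of letters, not of binding.
Mmp14 promoter, chr14:54431348-54431647, plus strand: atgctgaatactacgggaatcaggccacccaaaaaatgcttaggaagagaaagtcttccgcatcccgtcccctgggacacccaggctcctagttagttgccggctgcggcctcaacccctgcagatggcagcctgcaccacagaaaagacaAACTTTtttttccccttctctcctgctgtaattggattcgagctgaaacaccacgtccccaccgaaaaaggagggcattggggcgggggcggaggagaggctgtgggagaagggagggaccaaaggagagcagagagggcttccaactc
Phf21a promoter, chr2:92221222-92221521, plus strand: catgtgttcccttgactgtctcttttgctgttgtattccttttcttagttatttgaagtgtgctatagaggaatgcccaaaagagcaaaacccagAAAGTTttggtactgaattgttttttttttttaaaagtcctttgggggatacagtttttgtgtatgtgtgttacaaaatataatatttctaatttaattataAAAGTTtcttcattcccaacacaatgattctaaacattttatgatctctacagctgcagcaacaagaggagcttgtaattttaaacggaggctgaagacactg
The other Phf21a promoter in the table, at chr2:92185233-92185532, did not hold the motif, nor did those of Cdca7, Dlx1, Dlx2 or Hk2.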

How the data were processed

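Cortex RNA was sequenced from 5 HOM and 6 HET mouse embryos at E18.5, 2 libraries per animal. Per the study's methods, strand-keeping (dUTP) libraries were read as paired ends and aligned by STAR (mm10). How reads were counted, with which gene models and strand option, was not given in the sources used here. A table of unnormalised counts (55483 genes) was deposited by the authors and used here, beside tables of normalised values and of the authors' own comparisons (fold changes and p-values), which were not used.

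Groups, sex and sequencing batch came from the labels. Chi-square over its degrees of freedom was 1.19 to 1.33 between the 2 libraries of an animal (11 pairs), against 9.06 to 77.2 for libraries of different animals of a group (25 pairs), so these were summed. Libraries held 17.9 to 25.6 Mreads. Nothing gives litters, so p-values measure the spread between these animals. Sex labels matched sex-linked genes in 16 of 16 E18.5 animals.

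Counts were tested with edgeR 4.0.16 (R 4.3.3): TMM normalisation, filterByExpr (17773 genes kept), batch and sex as covariates, 2-sided quasi-likelihood F test, Benjamini-Hochberg adjustment, threshold 0.05. SEs are the log2 difference over the square root of F. Levels are TMM-scaled CPM, list levels means of log2 CPM with a prior count of 2. Counts of 17773 genes were simulated from these animals, with the changed genes drawn only from those at higher levels. Of these, 99% of 100 changed by 1 log2 unit and 100% of 100 changed by 2 were recovered. Changes under 1 log2 unit, the size of most differences reported here, and changes in genes at low levels were not simulated. Alternatives were limma 3.58.1, DESeq2 1.42.0, other normalisation, filters, covariates, animals and leave-one-out fits.

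Genes named were Myt1l and its relatives, the genes the study names, called genes or, with none called in a direction, the 6 with the smallest p there (mean log2 CPM of at least 1, all HOM animals on 1 side of the HET mean, no predicted genes), and up to 4 members per list by smallest p. The 14 genes under 0.1 were added. The comparison, the 43 gene lists (1303 of 1305 symbols matched) and the rule were chosen with earlier results of these data known. Lists were described by counts and medians, with no set test. Not all 43 lists are described, and some of those left out also leaned to 1 side. Of 13 tested oligodendrocyte precursor genes, 11 were below 0, with 3 lower and 0 higher at an unadjusted p under 0.05 (edgeR). Of 62 potassium channel genes, 43 were below 0, with 8 lower and 3 higher. Of 24 astrocyte genes, 16 were above 0, with 0 under that p.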

Additional observations from a re-analysis of the deposited data

Results flagged for a closer look

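In 134 groups of 5 or 6 animals (52 genes and 15 gene lists, in HET and in HOM), 8 had 1 animal whose gap to the others was a larger share of the range than Dixon's limit, and chance gives about 1 such group in 20. HET animal 459 was the one in 3 of them. It had 40.5 CPM of Mmp14 against 29.0 to 33.3 CPM in the other HET animals, 38.9 CPM of Hbp1 against 28.5 to 32.4 CPM, and a choroid plexus list level of 3.74 (mean log2 CPM) against -1.70 to -0.15. HET animal 457 had 181 CPM of Rims3 against 115 to 134 CPM, and an endothelial list level of 3.07 against 3.49 to 3.73. The cytosolic ribosomal protein level was 9.05 in HET animal 460 against 8.35 to 8.61, and 9.09 in HOM animal 728 against 8.54 to 8.70. HOM animal 730 had 59.8 CPM of Myt1 against 47.3 to 50.8 CPM in the other HOM animals.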

How the results depend on the processing

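The number of genes called depended on the processing, while the direction of most named genes did not. At an adjusted p of 0.05, against 1 gene, the count was 0 with sex as the only covariate, with no covariate and within batch 1 with or without a sex term. It was 2 (no sex term) and 10 within batch 3, 12 with WT animals added, 96 without a filter on low counts, 178 with all ages in 1 fit and 205 with DESeq2. With 1 animal left out it ran from 0 to 49. At an adjusted p of 0.1, against 14, it was 0 with sex as the only covariate, with no covariate and within batch 1, 1 with batch as the only covariate, 3 with limma-voom, 5 with DESeq2 size factors, 8 with a stricter filter, 29 with WT added, 70 and 292 (no sex term) within batch 3, 227 without a filter, 348 with DESeq2 and 379 with all ages. With 1 animal left out it ran from 0 to 305. The causes were not tested, but a fit with 1 animal left out or within a batch rests on fewer animals.

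Library numbers did not pair the animals (median correlation of deviations -0.255 for libraries of the same number and -0.258 for others). A limma-voom fit of the 22 libraries with the number as replicate block and the animal as a random block called 242 genes at 0.05 and 438 at 0.1, with Myt1l at 0.52 (adjusted p = 5.56e-05). That fit used 1 correlation within animals, 0.77, for all genes, so libraries counted in part as separate replicates. The SE of Myt1l was 0.065 there and 0.10 with libraries summed. Its calls may therefore be too many, and the fits with the animal as replicate are the ones to read. Myt1l also passed 0.05 without a filter (0.54), with all ages (0.52) and with DESeq2 (0.51), and was 0.44 to 0.58 with 1 animal left out. Over 51 other named genes and 1325 values, 1173 kept their direction and side of the threshold. Of the rest, 14 lost and 133 gained a call, and 5 reversed. All 14 losses were of Dlx1as, the only gene called in the main fit, so no other gene could lose a call. Many named genes were picked by a small p in these animals, so a kept direction is no independent evidence. The 5 reversals were all of St18. It was at -0.051 within batch 1 and below 0 with HET 460, HET 710, HET 733 or HOM 730 left out, within a range of -0.082 to 0.37 over all animals left out. The list medians above 0 numbered 19 of 43, 18 to 28 under the alternatives and 22 without HET 459. The batch, age and midpoint contrasts called 0 genes under each alternative run. Depth was similar in both groups, and what limits the count of calls was not tested.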
